A study of Homo sapiens with 4 samples.

Results

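The BCL2 family was described through 10 of its genes, chosen for their known roles in the mitochondrial pathway of apoptosis, in HepG2 and Huh7 cells before and after sonodynamic treatment. The choice was made with earlier results of these data known. The 10 genes comprised the pro-survival genes BCL2, BCL2L1 and MCL1, the effector genes BAX and BAK1, and the BH3-only genes BBC3, PMAIP1, BCL2L11, BID and BAD. They were 10 genes beside a GO background of 22148 annotated genes. A gene was called listed when its Ensembl identifier stood under at least 1 GO term in the authors' table of differentially expressed mRNAs for that comparison. By this rule 5 of the 10 genes were listed in HepG2 cells and 2 of the 10 in Huh7 cells. Over the GO background the shares were 21.6% and 19.7%, so the Huh7 count was close to its background share.

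Both cell lines are established lines from human liver cancer. Group A was HepG2 cells before treatment and group B was HepG2 cells after it, whereas groups C and D were Huh7 cells before and after it. The treated cells received nanobubbles that carried the sonosensitizer hematoporphyrin monomethyl ether (HMME) together with lonidamine (LND), an inhibitor of tumor energy metabolism, and were then exposed to ultrasound. Each group was 1 library of RNA depleted of ribosomal RNA, so no comparison had a replicate check and none was tested here. The tables gave the genes called and the number of genes under each term, but neither expression levels, reads nor the direction of change. Accordingly, a listed gene may have risen or fallen, and a gene that was not listed may have been unchanged, below detection or missed.

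In the mitochondrial pathway, the effectors BAX and BAK1 open the outer membrane of mitochondria, cytochrome c leaks into the cytosol, and the apoptosome with caspase-9 is assembled. The pro-survival proteins hold the effectors and their activators in check by binding their BH3 domain. The BH3-only proteins are the sensors of damage. BBC3 (PUMA) and PMAIP1 (NOXA) are known to be induced by stress, that of the endoplasmic reticulum (ER) included, BCL2L11 (BIM) is a known target of forkhead factors, BID is activated by cleavage, and BAD is switched by phosphorylation.

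The promoters of BBC3 and PMAIP1, the pair listed in both cell lines, and of BAX and BCL2L11, listed in HepG2 cells, are shown because these 4 genes carry the listings described here. MCL1, the other listed gene, had no entry. Each sequence is the 250 bases before the annotated start, from RefSeq on GRCh38.p14, written 5′ to 3′ on the strand of the gene. They lie at chr19:47232668-47232917 on the minus strand, and at chr18:59899746-59899995, chr19:48954625-48954874 and chr2:111120664-111120913 on the plus strand. Capitals mark an E-box (CACGTG) and an AP-1 site (TGANTCA) in BBC3, the cyclic AMP response half-site (TGACGT, here on the other strand) in PMAIP1, E-boxes in BAX and the forkhead box (GTAAACA) in BCL2L11.
BBC3: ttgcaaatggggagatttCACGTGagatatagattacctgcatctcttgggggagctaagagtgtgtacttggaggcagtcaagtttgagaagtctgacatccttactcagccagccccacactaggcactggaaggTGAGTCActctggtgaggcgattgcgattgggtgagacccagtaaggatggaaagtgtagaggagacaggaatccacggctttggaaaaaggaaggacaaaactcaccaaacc
PMAIP1: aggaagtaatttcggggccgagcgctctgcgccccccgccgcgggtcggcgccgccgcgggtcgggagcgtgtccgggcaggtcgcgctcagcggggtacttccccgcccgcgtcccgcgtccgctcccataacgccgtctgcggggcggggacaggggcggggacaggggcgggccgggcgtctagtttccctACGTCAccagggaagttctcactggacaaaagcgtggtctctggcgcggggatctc
BAX: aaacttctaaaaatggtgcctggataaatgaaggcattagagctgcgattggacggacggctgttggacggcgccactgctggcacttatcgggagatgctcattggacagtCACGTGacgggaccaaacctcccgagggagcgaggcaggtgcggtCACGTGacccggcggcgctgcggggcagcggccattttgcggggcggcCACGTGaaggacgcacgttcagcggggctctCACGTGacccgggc
BCL2L11: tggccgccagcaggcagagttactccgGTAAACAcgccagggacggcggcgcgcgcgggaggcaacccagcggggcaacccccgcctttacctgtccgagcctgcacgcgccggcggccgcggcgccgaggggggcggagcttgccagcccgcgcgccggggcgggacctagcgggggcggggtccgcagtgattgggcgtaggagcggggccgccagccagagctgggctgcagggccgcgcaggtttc

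The BH3-only genes gave the listings that the cell lines had in common. BBC3 (ENSG00000105327) was listed for both cell lines. PMAIP1 (ENSG00000141682) was likewise listed in both. BCL2L11 (ENSG00000153094) was listed in HepG2 cells and not in Huh7 cells. BID (ENSG00000015475) and BAD (ENSG00000002330) were listed in neither. Thus 3 of the 5 BH3-only genes were listed in HepG2 cells and 2 of the 5 in Huh7 cells, beside 21.6% and 19.7% of the background.

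Among the effectors, BAX (ENSG00000087088) was listed in HepG2 cells only, and BAK1 (ENSG00000030110), the other pore-forming gene, was listed in neither line. Among the pro-survival genes, MCL1 (ENSG00000143384), which encodes a short-lived protein, was listed in HepG2 cells only. BCL2 (ENSG00000171791), the founding member, and BCL2L1 (ENSG00000171552), which encodes BCL-XL, were listed in neither. In Huh7 cells no pro-survival gene and no effector of the 10 was listed. These were 3 and 2 genes, too few to set against the 19.7% of the background listed in that line.

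Over the GO background, group B vs. A listed 21.6% of the genes and group D vs. C listed 19.7%. The members' share was 50% in HepG2 cells, above that of the background, and 20% in Huh7 cells, close to that of the background. Genes listed in both comparisons were 10.3% of the background and 2 of the 10 members. Genes listed only in HepG2 cells were 11.3% of the background and 3 of the 10 members, namely BAX, BCL2L11 and MCL1. Genes listed only in Huh7 cells were 9.43% of the background, and no member was among them. The difference between the cell lines was not tested. The KEGG tables, which hold only genes assigned to a pathway, listed the same 5 members in HepG2 cells and the same 2 in Huh7 cells. They hold the authors' calls from the same libraries, so this is not an independent check. Of the protein-coding genes of GENCODE release 29, 8.46% and 8.19% were in a pathway row. These shares also count genes without any pathway in their base, so they are not a like background for the members.

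**Figure D1:**
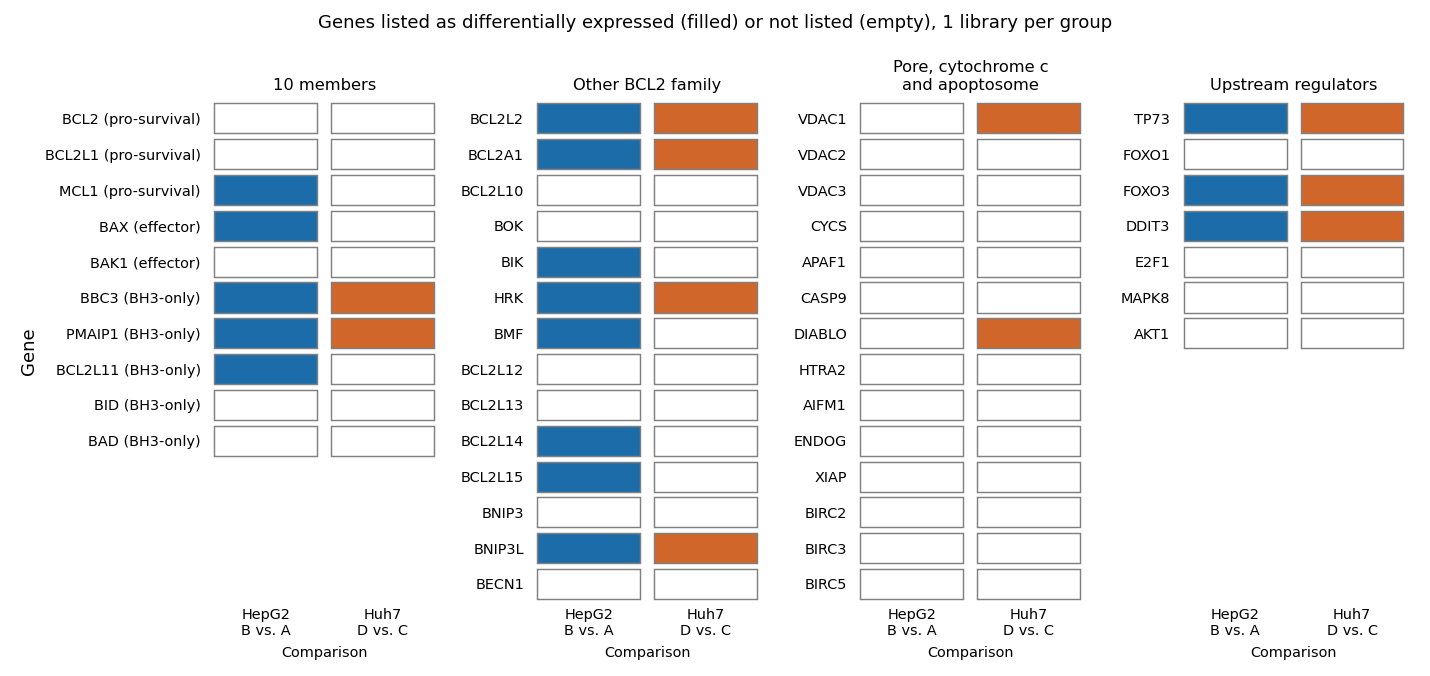
Listing of each gene (rows) in the 2 comparisons (columns) for the 10 members, the other BCL2 family genes, the genes of the mitochondrial pore, cytochrome c release and apoptosome, and upstream regulators; a filled cell is a gene listed as differentially expressed, an empty cell a gene not listed, and neither shows a direction. BBC3 and PMAIP1 are the members filled in both columns, and BAX, BCL2L11 and MCL1 are filled for HepG2 cells only.

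The other BCL2 family genes were set beside the background in the same way. Of 14 such genes, HepG2 cells listed 8 (57.1%) and Huh7 cells 4 (28.6%), beside 21.6% and 19.7% of the background. The 4 genes listed in both were the pro-survival genes BCL2L2 and BCL2A1, the BH3-only gene HRK, and BNIP3L, which encodes a receptor for the removal of mitochondria by autophagy. The 4 genes listed in HepG2 cells only were the BH3-only genes BIK and BMF, and BCL2L14 and BCL2L15. The other 6 genes, comprising BCL2L10, BOK, BCL2L12, BCL2L13, BNIP3 and BECN1, were listed in neither. No gene of these 14 was listed in Huh7 cells alone. Over the background, 10.3% of genes were listed in both lines, 11.3% in HepG2 cells only and 9.43% in Huh7 cells only. Neither the difference from these shares nor that between the lines was tested.

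Downstream of the family, 14 genes of the mitochondrial pore, cytochrome c release and the apoptosome were examined. This list also held XIAP, BIRC2, BIRC3, BIRC5, AIFM1 and ENDOG. HepG2 cells listed 0 of the 14 genes and Huh7 cells listed 2 (14.3%), beside 21.6% and 19.7% of the background. The difference from the background was not tested. The 2 genes were VDAC1, a channel of the outer membrane, and DIABLO, whose protein leaves mitochondria to relieve the inhibitor of apoptosis proteins. CYCS, APAF1, CASP9, XIAP and the remaining 8 genes were listed in neither. Of 7 upstream regulators, the same 3 were listed in both cell lines (42.9%), beside 10.3% of the background. They were TP73, a transcription factor, FOXO3, a forkhead factor, and DDIT3, which encodes the ER stress factor CHOP, whereas FOXO1, E2F1, MAPK8 and AKT1 were listed in neither.

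Bcl-2 family protein complex, BH domain binding and BH3 domain binding are small GO terms built around the family. Their listed members were MCL1, BAX and BCL2L11 in HepG2 cells, and none in Huh7 cells. BBC3 and PMAIP1 stood under none of these terms. Bcl-2 family protein complex had 7 background genes, of which HepG2 cells listed 4 and Huh7 cells listed 2. The HepG2 genes were MCL1, BAX, BCL2L11 and BCL2L2. The Huh7 genes were BCL2L2 and BCL2L2-PABPN1, a read-through locus that shares sequence with BCL2L2, so that reads could be split between them and the call of either is uncertain. Of the 10 genes of BH domain binding, MCL1, BAX, BCL2L2, BCL2A1 and IRGM were listed in HepG2 cells, and BCL2L2 and BCL2A1 in Huh7 cells. Of the 5 genes of BH3 domain binding, 3 were listed in HepG2 cells (MCL1, BAX and IRGM). This term had no row for Huh7 cells, which corresponds to 0 listed genes because each row held at least 1.

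The release of cytochrome c is the step that the family controls. For positive regulation of release of cytochrome c from mitochondria, HepG2 cells listed 14 of 31 genes (45.2%, 95% Wilson confidence interval 29.2% to 62.2%) and Huh7 cells 7 of 31 (22.6%, 11.4% to 39.8%). The intervals, which overlapped, cover counting error only. The HepG2 genes included the members BAX, BBC3, PMAIP1 and BCL2L11 and the family genes BIK, BMF and HRK. Those of Huh7 cells included BBC3, PMAIP1 and HRK, and the lines had 6 genes in common. With the listed BCL2 family genes left out, the numbers were 7 of 24 genes (29.2%) and 4 of 24 genes (16.7%). For negative regulation of the same process, each line listed 2 of 19 genes (10.5%) with no member among them. The shares of the GO background were 21.6% for HepG2 cells and 19.7% for Huh7 cells. The genes named here outside the fixed lists were chosen after their values had been seen.

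Under the intrinsic apoptotic signaling pathway, which starts inside the cell, HepG2 cells listed 93 of 298 genes (31.2%) and Huh7 cells listed 70 (23.5%). The GO background stood at 21.6% and 19.7%. All 5 listed members stood under this term in HepG2 cells and both in Huh7 cells. For its branch in response to ER stress, the counts were 28 of 68 genes (41.2%) and 18 of 68 genes (26.5%), with BAX, BBC3, PMAIP1 and BCL2L11 in HepG2 cells and BBC3 and PMAIP1 in Huh7 cells. For the branch in response to DNA damage, they were 36 of 115 genes (31.3%), with MCL1, BAX and BCL2L11, and 24 of 115 genes (20.9%), with no member. The response to oxidative stress held no listed member in either line, and its listed genes numbered 7 of 36 for HepG2 and 8 of 36 for Huh7.

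The extrinsic apoptotic signaling pathway, which starts at death receptors, differed less, with 65 of 237 genes listed for HepG2 (27.4%) and 63 for Huh7 (26.6%). Its members were MCL1, BAX, PMAIP1 and BCL2L11 in HepG2 cells and PMAIP1 in Huh7 cells. The mitochondrial outer membrane, where the family acts, held 46 listed genes of 192 for HepG2 (24%) and 49 for Huh7 (25.5%), although it held all 5 listed members in the former and 2 in the latter. Regulation of mitochondrial membrane potential held 17 and 14 of 73 genes, with BAX and PMAIP1 in HepG2 cells and PMAIP1 in Huh7 cells. For apoptotic process as a whole, 550 of 2113 genes (26%) and 480 genes (22.7%) were listed. Background shares were 21.6% and 19.7% of the GO background, or 23.9% and 21.9% of protein-coding genes. The 24% for the outer membrane in HepG2 cells and the 22.7% for apoptotic process in Huh7 cells lay near these.

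Of the 20 fixed terms and pathways reported, 17 had more genes listed in HepG2 cells, 1 had equal numbers and 2 had more in Huh7 cells. These terms share genes, and the HepG2 list was also the longer. Of all 15753 GO terms found for either line, 7979 (50.7%) had more genes listed in HepG2 cells. Another 3178 had equal numbers, and 4596 had more in Huh7 cells. Equal numbers were thus more common than among the fixed terms, so the 50.7% is not a like measure for the 17 of 20. When the members found under a term were left out, 15 of the 20 fixed terms had more in HepG2 cells and 4 had more in Huh7 cells. The terms that turned were Bcl-2 family protein complex and the extrinsic pathway. A member that was listed in neither line cannot be recognised under a term, so leaving members out takes away genes listed in at least 1 line, which by construction lowers the share of a line that lists them.

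**Figure D2:**
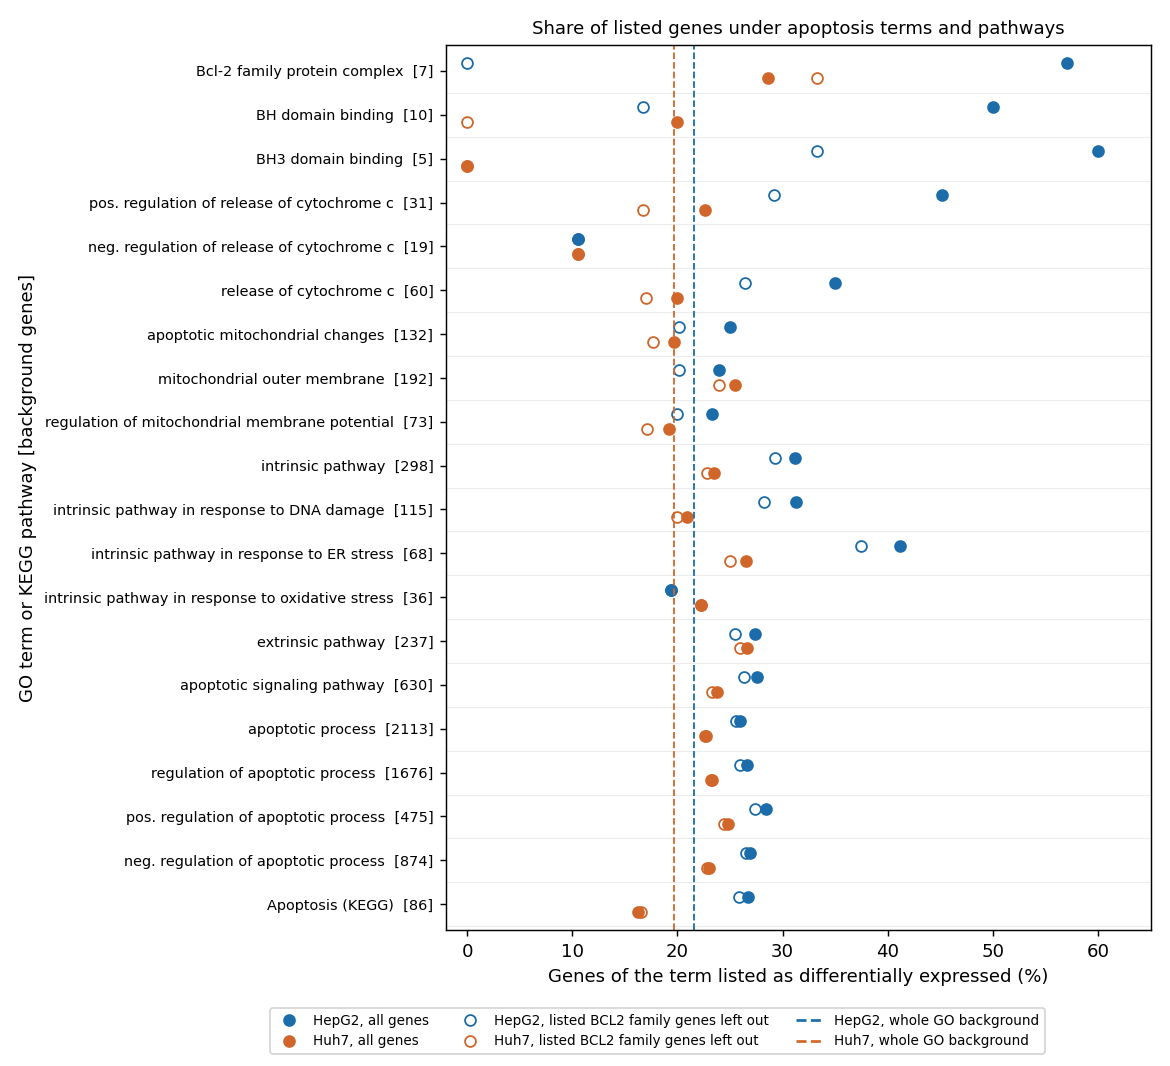
Share of the background genes of each GO term or KEGG pathway listed as differentially expressed (x axis, %), with the number of background genes in brackets; filled points are all genes, open points leave out the BCL2 family genes listed in either cell line, and dashed lines are the shares of the whole GO background (21.6% and 19.7%). With all genes, BH3 domain binding stands at 60% for HepG2 cells and 0% for Huh7 cells, negative regulation of cytochrome c release at 10.5% for both, and the extrinsic pathway at 27.4% and 26.6%; with family genes left out, Bcl-2 family protein complex stands at 0% and 33.3%.

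In the KEGG tables, 19 pathways held a listed member, many of them named for a disease or an infection. Of these, 16 had more genes listed in HepG2 cells, 1 had equal numbers and 2 had more in Huh7 cells, in a set of pathways chosen by members of which more were listed in HepG2 cells. The latter 2 included Prion diseases, with 12 of 36 genes in HepG2 cells, BAX among them, and 16 in Huh7 cells without a member. Apart from Apoptosis, the pathways described here were chosen after their values had been seen. Apoptosis held 23 of 86 listed genes in HepG2 cells (26.7%), with BAX as the single member, and 14 in Huh7 cells (16.3%) with none. The FoxO signaling pathway held BCL2L11 among its 44 of 134 listed genes in HepG2 cells (32.8%), and 32 genes without a member in Huh7 cells (23.9%). The PI3K-Akt signaling pathway, which restrains apoptosis, held MCL1 and BCL2L11 among 115 of 347 genes in HepG2 cells (33.1%), and 101 genes without a member in Huh7 cells (29.1%). The Hippo signaling pathway held BBC3 in both lines, with 46 and 44 of 154 genes listed.

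The listed members differed in how widely they are annotated, a property of GO and not of these cells. In HepG2 cells BAX stood under 654 GO terms, BCL2L11 under 344, PMAIP1 under 252, BBC3 under 246 and MCL1 under 159. In Huh7 cells, BBC3 stood under the same 246 terms and PMAIP1 under the same 252 terms as in HepG2 cells, and 171 terms held both. All 5 listed members shared 75 of the 845 terms with any member in HepG2 cells, and BAX alone accounted for 306. The smallest term with at least 3 members, after Bcl-2 family protein complex, was positive regulation of the intrinsic pathway in response to ER stress. Of its 10 genes, BBC3, PMAIP1, BCL2L11, DDIT3 and SIRT1 were listed in HepG2 cells, and BBC3, PMAIP1 and DDIT3 in Huh7 cells. The 10 smallest terms with at least 3 members ranged from 7 to 44 genes. They could come from HepG2 cells only, because Huh7 cells listed 2 members, so their counts are not compared between the lines.

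Some members lie on top of other genes, which bears on how reads are assigned. In GENCODE release 29, 6 of the 10 members shared exon bases with another gene. These were BBC3 with MIR3190 and MIR3191, BCL2L11 with MIR4435-2HG on the opposite strand, MCL1 with ADAMTSL4-AS1 on the same strand, and BAD, BAK1 and BCL2L1 with genes on the opposite strand. The kit kept the strand of the RNA, but whether the counting used it is not given in the sources used here. None of the 7 overlapping genes was listed in either comparison, in tables that were made for mRNAs. Without the 6 members, PMAIP1 was the listed member in Huh7 cells, and BAX and PMAIP1 were those in HepG2 cells.

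The promoter windows of the listed members, printed above, differed in their base composition and in the motifs they held. A window covers 250 bases before and 50 bases from the annotated start, and 9 of the 10 members had at least 1 of the 35116 windows of the RefSeq table. Both strands were searched for 6 motifs, none of which overlapped another in a window of a member. G and C made up 49.2% of the 250 bases printed for BBC3, 62.8% for BAX, 72.8% for PMAIP1 and 76.8% for BCL2L11. The forkhead box of BCL2L11, at positions -223 to -217 from the start, was the single match among 15 windows of members, and 3.42% of all windows held one. BAX held 4 E-boxes, and 7.26% of all windows held at least 1, as did that of BBC3 and 2 of the 5 windows of BID. BBC3 was the member with the AP-1 letters, which 7.71% of all windows held, and PMAIP1 and BAD were those with the cyclic AMP response half-site, which 7.98% held.

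The GC box (GGGCGG) was found in windows of 7 of the 9 members with a window and in 45% of all windows. It was absent from the windows of BBC3 and BCL2. The composite element of CHOP and ATF4 (TGATGNAAT) was found in no window of a member and in 0.991% of all windows. A match of letters is a description of the sequence and not a binding site, and binding outside these windows was not examined.

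**Figure D3:**
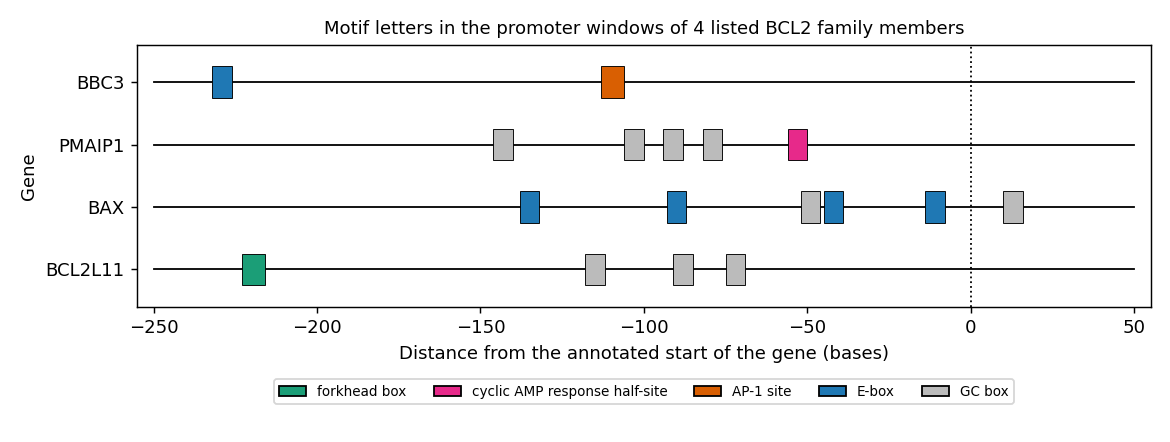
Position of the motif letters (colored boxes) relative to the annotated start of the gene (x axis, bases; dotted line, start) in the RefSeq promoter windows of 4 listed members. BAX holds 4 E-boxes, PMAIP1 and BCL2L11 hold runs of GC boxes, and BBC3 holds none of the latter.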

How the data were processed

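Total RNA depleted of ribosomal RNA from groups A to D was sequenced, with 1 library per group, and groups were taken from the sample labels. The submitters' processing notes name HISAT2, Bowtie2 2.2.8, StringTie 1.3.1 and Cuffdiff 2.1.1, and the genome build is not given in the sources used here. The authors called differentially expressed mRNAs on an adjusted p-value and deposited, for each comparison, a GO and a KEGG table with numbers of listed and background genes per term, gene identifiers, and their own p-values, which were not used. The deposited numbers are counts of genes, not of reads, so the depth of the libraries was not assessed.

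All identifiers found in the GO rows of a comparison were pooled into its gene list (Python 3.11.15), and the reading step was tested on simulated tables. All 45 gene symbols of the 4 lists matched an identifier. Intervals were Wilson intervals (SciPy 1.17.1). The members, gene lists and motifs were chosen with earlier results of these data known. Named genes were all listed genes of these lists, and a few others under small terms, named after their values had been seen. By rule, named terms were fixed apoptosis terms and GO terms among the 10 smallest with at least 3 members. Other KEGG pathways were named after their values had been seen. Alternatives were the KEGG tables, protein-coding genes as background, and members left out. The lncRNA and circRNA tables were not analysed here, and some genes, terms and a motif are not reported here.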

Additional observations from a re-analysis of the deposited data

How the results depend on the processing

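The number of members listed was 5 for HepG2 and 2 for Huh7 with the GO table, with the KEGG table and with either. Both hold the authors' calls from the same libraries, so their agreement is not an independent check. With members that share exon bases with another gene left out, a setting chosen after the data had been seen, 2 and 1 were listed. With protein-coding genes of GENCODE release 29 as background, 23.9% of all genes were listed for HepG2 and 21.9% for Huh7, in place of 21.6% and 19.7%. Counts in the other gene lists did not move when KEGG rows were added, which is likewise no independent check. Leaving out the members lowered Bcl-2 family protein complex in HepG2 cells from 57.1% to 25%. The other 39 shares stayed within their 95% Wilson interval, which says little. Small terms have wide intervals, and large terms lose few of their genes. BH3 domain binding in HepG2 cells still fell from 60% to 33.3%, and BH domain binding from 50% to 37.5%. Bcl-2 family protein complex in Huh7 cells rose from 28.6% to 50%. Leaving out all listed BCL2 family genes, also chosen after the data had been seen, gave 0% for Bcl-2 family protein complex in HepG2 cells. For BH domain binding it gave 16.7% in HepG2 cells and 0% in Huh7 cells. These last changes follow from the removal of listed genes from terms of 7 and 10 genes.

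With 1 library per group, the calls have no replicate check, and libraries and cell lines cannot be told apart. The background of 22148 genes was not limited to genes expressed in these cells, and whether the members listed in neither line belong to it cannot be read from the tables. No paired analysis was possible because each group has 1 library.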
